A study of Mus musculus with 2 samples.

Results

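The 40 genes described here encode subunits, activators and assembly factors of the proteasome and a partner of an activator, followed through the culture of mouse mucosal mast cells. They were chosen by name: every gene whose symbol starts with Psma, Psmb, Psmc, Psmd, Psme, Psmf or Psmg and a digit, without Psmb8 and Psmb9. They made up 40 of 20718 gene names with a probe and were read by 41 probes. Of the 40, 33 were named by the accession of their probe, 2 by a symbol in its description, 1 (Psmc6) by an older symbol there and 4 (Psmb4, Psmc2, Psmd1 and Psmd11) by a subunit name spelled out there. The rule also takes in Psme3ip1, a partner of an activator and not itself part of the particle. It is counted among the 40 genes and left out of the groups by place below. All 41 probes were well above background in all 4 channels and 0 were saturated. A spot of Psma4 carried an outlier mark, so 39 of the 40 genes were tested.

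Total RNA of mouse cultures in medium with IL-3, IL-9, SCF and TGF-beta1 was taken at day 20 and at day 4. Both days lay side by side on each of 2 two-colour arrays, and every array yielded a single ratio, day 20 over day 4. Array 1 carried day 20 in Cy5 and day 4 in Cy3, while array 2 carried them in the opposite dyes. Each labelled RNA was a pool of at least 3 samples, and array 2 held pools of other origin, so n = 2 for every value below. The labels do not name the cells put into culture. Psmd6, Psmf1, Psme4, Psmg3, Psmg4, Psma8 and Psmb11 were not analysed here.

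The proteasome is the large protease that degrades proteins marked with ubiquitin. Its core is a barrel of alpha and beta rings, whose proteolytic sites lie on 3 of the beta subunits, Psmb5, Psmb6 and Psmb7. A regulatory particle caps the barrel: the ring of Psmc ATPases in its base unfolds the substrate, and its lid removes the ubiquitin chain. Dedicated assembly factors put the rings together, and separate activators of the Psme family can open the barrel without ATP. In blood cells interferon can exchange the proteolytic beta subunits for tissue forms such as Psmb10.

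Transcript ratios of 15 proteasome genes were lower at day 20, and that of Psmb7, a proteolytic subunit, was higher. Of the 39 genes tested 15 were lower and 1 was higher at an adjusted p below 0.05 with limma. Over all 18073 genes tested, 9.26% were lower and 7.82% higher, so the share of lower calls among the proteasome genes, 38.5%, lay well above the background and the share of higher calls did not. That background takes in probes named by an accession only, and it was not matched to the proteasome genes for signal or naming. The median log2 ratio of the 39 genes was -0.32, against -0.01 over all genes tested. It was -0.45 on array 1 and -0.22 on array 2. The 15 falls were between 1.43-fold and 1.99-fold, and 0 of the 39 genes reached a 2-fold change on the mean of the arrays. A total of 26 genes lay below 0 on both arrays, which 30.4% of all genes tested did, and 4 lay above 0 on both, which 29% did.

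**Figure D1:**
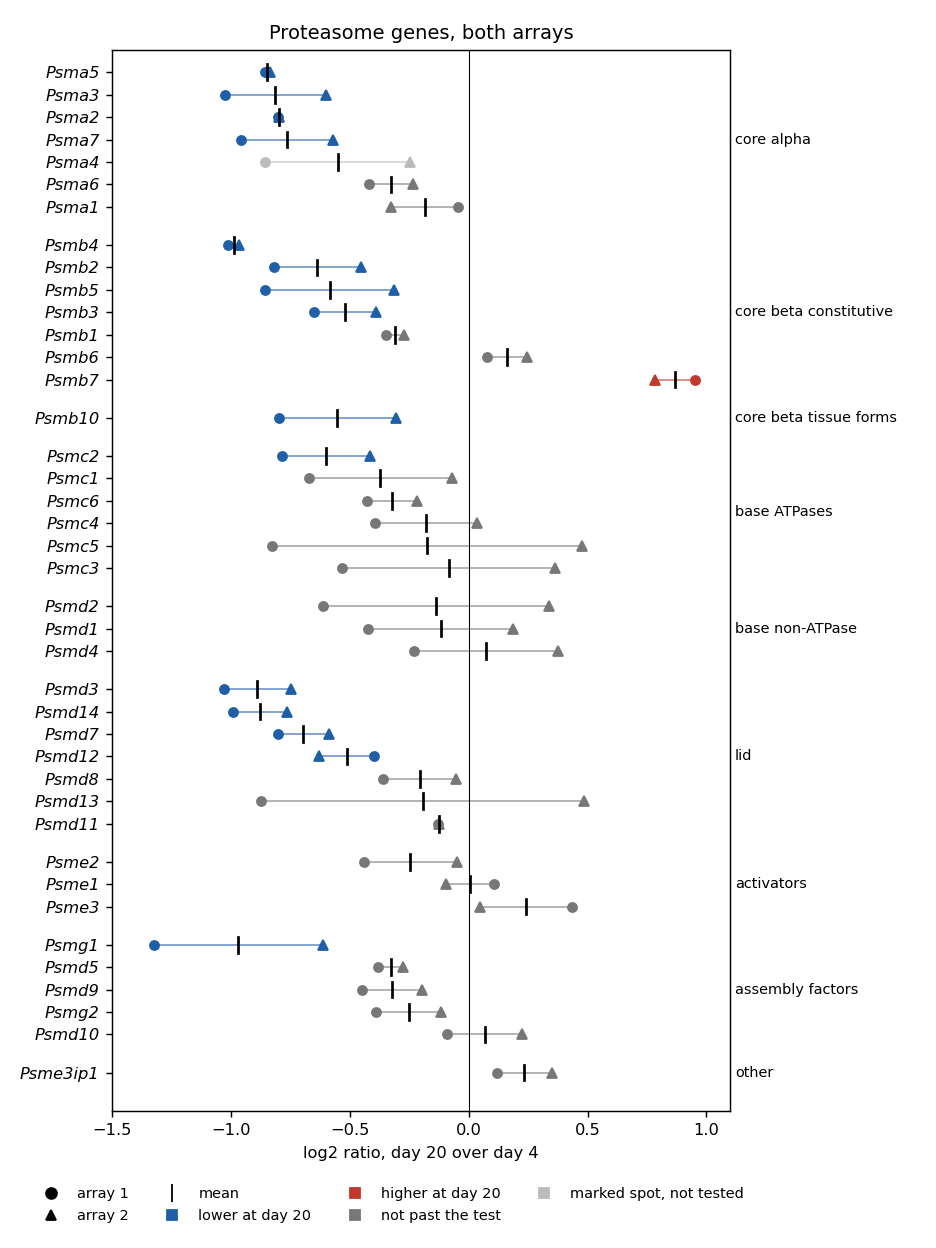
Log2 ratio of day 20 over day 4 for each of the 40 proteasome genes on array 1 (circle) and array 2 (triangle), with the mean as a bar and genes grouped by their place in the particle. The 15 lower genes lie below 0 on both arrays, Psmb7 lies at 0.95 and 0.78, and 9 of the genes that did not pass the test have opposite signs on the arrays.

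These ratios are relative to the typical gene of each array, and in bulk RNA fewer cells of a type cannot be told apart from less RNA per cell. Marker genes of several cell types differed between the days: all 7 tested mast cell markers rose, with log2 ratios from 0.65 to 2.99. In the same comparison 7 of 9 neutrophil markers fell, with a range of -5.06 to 0.06, as did 6 of 6 macrophage markers, from -3.60 to -0.45, and 4 of 5 erythroid markers, from -1.99 to -0.14. Of 10 tested genes of dividing cells, 6 fell and 0 rose, with a median of -0.51 and a range of -0.80 to -0.14. Their part in the proteasome ratios was not tested. Nothing says whether the samples of a pool came from separate cultures, so p-values reflect only the spread between these 2 arrays. In limma that spread was drawn largely from all genes, with a prior of 11.9 degrees of freedom against 1 of the gene itself.

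Among the 7 alpha subunits, which form the outer rings of the barrel and its gate, 6 were tested, 4 fell and 0 rose. Psma5 fell most, with a log2 ratio of -0.85 ± 0.01 (SD, n = 2; adjusted p = 0.000102 with limma). Its normalized signal was 4060 intensity units at day 20, against 7349 at day 4, on array 1, and 2723 at day 20, against 4867 at day 4, on array 2. Day 20 was thus the lower channel on both arrays, by nearly the same factor. Psma2 had ratios of -0.80 on both arrays, Psma3 of -1.02 and -0.60, and Psma7 of -0.96 and -0.57 on array 1 and array 2. The remaining pair of tested alpha genes, Psma6 at -0.33 ± 0.13 and Psma1 at -0.19 ± 0.20, did not pass the test. The marked spot belonged to Psma4. With marked spots kept, its ratios were -0.86 and -0.25 with an adjusted p of 0.0161 in limma.

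Of the 7 constitutive beta subunits, which form the inner rings, 4 fell and 1 rose. Psmb4, a beta subunit without a proteolytic site of its own, fell by 0.99 on the log2 scale, the largest fall among the 39 genes (SD 0.03, n = 2; adjusted p = 2.93e-05 with limma). Its signal was 1557 at day 20, against 3140 at day 4, on array 1, and 1209 at day 20, against 2363 at day 4, on array 2. Its probe is described as similar to that subunit and carries a clone accession. Psmb2 at -0.64 ± 0.26 and Psmb3 at -0.52 ± 0.19, also without proteolytic activity, fell too. Psmb1, likewise a structural subunit, stood at -0.31 ± 0.05 on the log2 scale and missed the threshold (adjusted p = 0.0815 with limma).

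Of the 3 proteolytic subunits 1 rose, 1 fell and 1 did not pass the test. Psmb7, which carries the trypsin-like site, rose 1.82-fold, with a log2 ratio of 0.87 ± 0.12 (SD, n = 2; adjusted p = 0.000101 with limma). The Psmb7 probe read 6427 at day 20, against 3323 at day 4, on array 1, and 2157 at day 20, against 1254 at day 4, on array 2. Psmb5, which carries the chymotrypsin-like site, fell to 984 at day 20, against 1781 at day 4, on array 1, and to 860 at day 20, against 1070 at day 4, on array 2. That gave a log2 ratio of -0.59 ± 0.38 (adjusted p = 0.00717 with limma). Psmb6, which carries the caspase-like site, had 530 at day 20, against 502 at day 4, on array 1, and 815 at day 20, against 687 at day 4, on array 2. At 0.16 ± 0.12 on the log2 scale it missed the threshold (adjusted p = 0.512 with limma). The Psmb6 probe is described as similar to the transcript of that gene. The differences between the 3 subunits were not tested. Psmb10, the tissue form that takes the place of Psmb7 in the immunoproteasome, fell with a log2 ratio of -0.55 ± 0.35 (adjusted p = 0.00854 with limma). On array 1 and array 2 Psmb10 stood at -0.80 and -0.31 and Psmb7 at 0.95 and 0.78. The call of Psmb10 was lost in 3 of the 9 tested alternatives, with adjusted p in limma of 0.0963 with a normexp offset of 0, 0.184 with the scanner's ratios and 0.134 with median centring. The call of Psmb5 was lost in the same 3, at 0.0737, 0.177 and 0.137. The sequences of the Psmb7 and Psmb10 probes were not compared here. A probe for the Psmb5 pseudogene, which is no member here, had ratios of -0.98 and -0.12. Other probes described as proteasome proteins were resolved to no symbol, were dimmer and lay nearer 0. That of an alpha type 7 homolog had -0.27 and -0.05, and that similar to the inhibitor PI31 had -0.12 and -0.02. A probe described as beta type 8 had -0.02 and -0.05.

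Proteasome promoters are known for antioxidant response elements, sites for NFE2L1 and NFE2L2 with small Maf partners, through which cells raise many subunits together. The letters TGACNNNGC were searched on both strands of RefSeq promoter windows (GRCm38.p6, 250 bases before to 50 bases after the gene start). They were found in 5 of the 37 windows of 33 members (13.5%), against 12.4% of all 32544 windows, a share near the background. Psmb1, Psmb2, Psmb7, Psmc3, Psmd3, Psmd7 and Psmg2 were not searched here. The 5 members were Psmb5, Psmb6, Psmc6, Psmd9 and Psmd12, of which Psmb5 and Psmd12 fell and the other 3 did not pass the test. Windows of the proteolytic subunits Psmb5 and Psmb6 and of the lid gene Psmd12 are shown. All match TGACNNNGC, with different letters at the N positions. Psmb5 and Psmd12 fell, while Psmb6 did not pass the test. Each window reads along the gene's own strand, and capitals mark the match. The Psmb5 window is chr14:54617946-54618245 on the minus strand, with its match starting 47 bases before the gene start. That of Psmb6 is chr11:70525107-70525406 on the plus strand, with its match starting 9 bases before the start. For Psmd12 it is chr11:107479278-107479577 on the plus strand, where the match is on the opposite strand and starts 247 bases before the start.
Psmb5: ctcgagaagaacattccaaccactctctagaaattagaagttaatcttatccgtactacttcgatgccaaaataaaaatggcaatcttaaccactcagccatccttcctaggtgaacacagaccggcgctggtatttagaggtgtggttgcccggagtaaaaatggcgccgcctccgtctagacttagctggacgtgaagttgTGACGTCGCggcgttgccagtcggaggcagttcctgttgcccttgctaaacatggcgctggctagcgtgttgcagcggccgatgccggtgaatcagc
Psmb6: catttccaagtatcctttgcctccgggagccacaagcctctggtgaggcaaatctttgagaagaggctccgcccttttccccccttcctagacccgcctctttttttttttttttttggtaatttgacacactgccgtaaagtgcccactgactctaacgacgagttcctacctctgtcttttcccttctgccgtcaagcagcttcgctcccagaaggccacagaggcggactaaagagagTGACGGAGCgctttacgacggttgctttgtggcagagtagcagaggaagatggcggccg
Psmd12: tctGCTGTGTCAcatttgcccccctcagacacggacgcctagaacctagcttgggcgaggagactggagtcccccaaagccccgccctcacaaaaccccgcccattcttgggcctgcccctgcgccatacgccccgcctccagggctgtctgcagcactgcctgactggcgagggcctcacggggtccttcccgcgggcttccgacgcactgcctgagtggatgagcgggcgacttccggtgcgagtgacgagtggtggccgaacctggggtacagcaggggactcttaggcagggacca

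Other promoter letters were likewise counted on both strands. CCAAT, the box bound by NF-Y, lay in 13 of the 37 windows (35.1%), against 37.4% of all windows. The Ets letters CCGGAAGT lay in 7 of them (18.9%), against 3.92%, and the palindromic letters of nuclear respiratory factor 1 in 2, those of Psma2 and Psmg1 (5.41%), against 0.974%. Of the 12 lower members with a window, 6 held CCAAT and 2 each held the Ets, the nuclear respiratory factor 1 and the antioxidant response letters. A match is a description of these letters and not a site.

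The base of the regulatory particle, several of whose probes were dim, differed from the core in how far its arrays matched. Of its 6 ATPase genes 1 fell, Psmc2, with a log2 ratio of -0.60 ± 0.26 (adjusted p = 0.00319 with limma). Its signal was 1093 at day 20, against 1884 at day 4, on array 1, and 862 at day 20, against 1150 at day 4, on array 2. A second and dimmer Psmc2 probe had ratios of 0.04 and -0.12, and with the mean of both probes the gene was at -0.32 and did not pass. Psmc1 at -0.37 ± 0.43 and Psmc6 at -0.32 ± 0.15 lay below 0 on both arrays without passing. The other 3 ATPase genes changed sign between arrays. The widest gap was that of Psmc5, with 176 at day 20, against 313 at day 4, on array 1 and 207 at day 20, against 149 at day 4, on array 2, which are log2 ratios of -0.83 and 0.47. Psmc3 stood at -0.53 and 0.36, and Psmc4 at -0.39 and 0.04.

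Psmd1 and Psmd2, the scaffold subunits of the base, and Psmd4, its ubiquitin receptor, did so as well. Their ratios on array 1 and array 2 were -0.42 and 0.19 for Psmd1, -0.62 and 0.34 for Psmd2, and -0.23 and 0.37 for Psmd4. In all, 0 of these 3 genes passed. Apart from Psmc2, then, 0 genes of the base were called in a direction. The SD between arrays was 0.43 for Psmd1, 0.67 for Psmd2 and 0.92 for Psmc5, against a pooled SD of 0.19 over all genes tested. Base probes that changed sign were mostly dim at day 4 on array 2. Psmc5 read 149 there, Psmc3 193, Psmc4 257, Psmd1 128, Psmd2 163 and Psmd4 501. Of the base genes that kept their sign, Psmc1 read 276 there, Psmc6 228 and Psmc2 1150, so some were as dim. The lowest such signal of a tested core gene was 396, that of Psmb2. The part of brightness in the gap between arrays was not tested.

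In the lid 4 of 7 tested genes fell and 0 rose. Psmd14, the metalloprotease that cuts the ubiquitin chain from the substrate, fell 1.84-fold, to 1469 at day 20, against 2925 at day 4, on array 1 and to 719 at day 20, against 1223 at day 4, on array 2. Its log2 ratio was -0.88 ± 0.16 (SD, n = 2; adjusted p = 0.000103 with limma). Psmd7, the subunit that pairs with Psmd14, fell with ratios of -0.80 and -0.59. Psmd3, a scaffold of the lid, had 2608 at day 20, against 5329 at day 4, on array 1, and 2532 at day 20, against 4255 at day 4, on array 2. This was a log2 ratio of -0.89 ± 0.20 (adjusted p = 0.00011 with limma). Psmd12, another lid subunit, fell with ratios of -0.40 and -0.63. The 3 lid genes that did not pass were Psmd8 at -0.21 ± 0.22, Psmd11 at -0.13 ± 0.0022 and Psmd13, which stood at -0.87 on array 1 and 0.49 on array 2. Psmd11 was the dimmest of these genes, and its ratio was -0.32 with a normexp offset of 0 and -0.38 with the scanner's ratios, so its small SD is no measure of its precision.

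**Figure D2:**
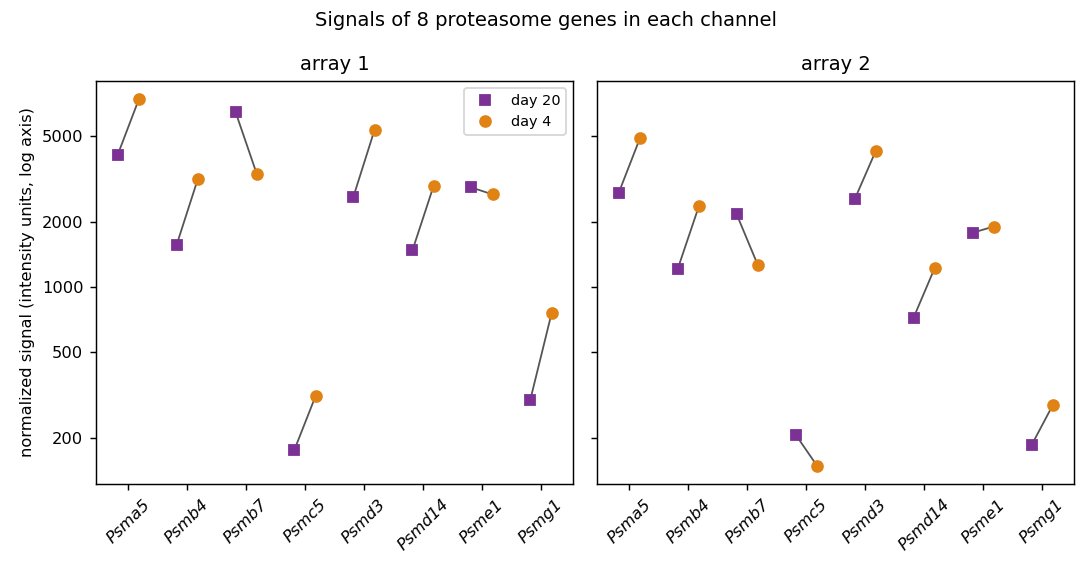
Normalized signal (intensity units, log axis) of 8 proteasome genes at day 20 (square) and day 4 (circle) on array 1 (left) and array 2 (right). Psma5, Psmb4, Psmd3, Psmd14 and Psmg1 are lower at day 20 on both arrays, Psmb7 is higher on both, and Psmc5 and Psme1 change direction between arrays; levels of different probes are not comparable.

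The activators gave 0 calls among 3 tested genes. Psme1 and Psme2, the interferon-inducible pair of one activator ring, had log2 ratios of 0.01 ± 0.14 and -0.25 ± 0.28. Psme1 read 2876 at day 20, against 2669 at day 4, on array 1, and 1775 at day 20, against 1897 at day 4, on array 2. With median centring of the arrays its ratio was -0.14, so its direction depended on the scaling. Psme3, the nuclear activator, stood at 0.44 and 0.05 (adjusted p = 0.272 with limma). Its partner Psme3ip1 stood at 0.23 ± 0.16 and missed the threshold. A missed threshold does not show that these genes stayed level.

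Among 5 tested assembly factors 1 fell. Psmg1, a member of the chaperone pair that starts the alpha ring, fell to 300 at day 20, against 752 at day 4, on array 1 and to 185 at day 20, against 283 at day 4, on array 2. Its log2 ratio was -0.97 ± 0.50 (adjusted p = 0.000363 with limma), and the ratio of -1.33 on array 1 was the lowest single value of the 39 genes. Psmg2, the other member of the pair, lay below 0 on both arrays at -0.39 and -0.12 without passing. The chaperones of the base, Psmd5 at -0.33 ± 0.08, Psmd9 at -0.32 ± 0.18 and Psmd10 at 0.07 ± 0.22, did not pass either.

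**Figure D3:**
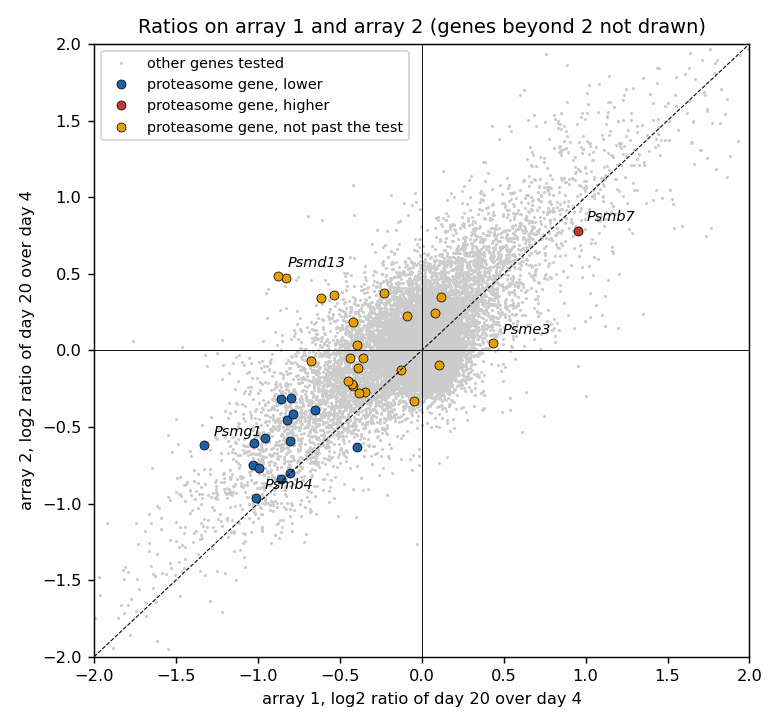
Log2 ratio of day 20 over day 4 on array 1 (x axis) and array 2 (y axis) for the tested genes within 2 of 0 (grey) and the 39 tested proteasome genes (coloured by call). Of the proteasome genes 34 lie above the dashed line of equal ratios, and Psmb7 lies apart at the upper right.

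The arrays placed the proteasome genes differently. The ratio on array 2 was above that on array 1 for 34 of the 39 genes, with a median difference of 0.27, against 0.03 over all genes tested, where 10007 of 18073 lay higher on array 2. The median difference was 0.77 for the chaperonin, 0.30 for the COP9 signalosome and -0.08 for the ribosomal proteins described below. Within the proteasome it was 0.18 for the 14 tested core genes and 0.40 for the 16 genes of base and lid. Taken apart, it was 0.23 for the lid, 0.52 for the base ATPases and 0.61 for the other base genes. As a result 34 genes lay below 0 on array 1 and 27 on array 2, and the median of the base ATPases was -0.60 on the first array and -0.02 on the second. The arrays differed in dye orientation, in pools and in signal over background, with 90.5% of gene spots well above background at day 20 and 80.0% at day 4 on array 2, against 93.1% and 96.2% on array 1. The median signal less background, relative to that of negative controls, ranked the channels otherwise. It was 1.65 at day 20 and 4.28 at day 4 on array 2, against 7.27 and 2.79 on array 1. Orientation, pools and signal cannot be told apart with 2 arrays.

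Genes that work beside the proteasome were set next to it. All 5 tested partners fell: Pomp, the maturation factor of the core, at -1.08 ± 0.16, the small lid subunit Sem1 at -0.44 ± 0.04, the deubiquitinases Usp14 at -0.49 ± 0.11 and Uchl5 at -0.41 ± 0.01, and the thioredoxin-like Txnl1 at -0.63 ± 0.39. Pomp thus stood near Psmg1 at -0.97 and Psmb4 at -0.99. Rps27a, which encodes ubiquitin fused to a ribosomal protein, fell too, with a log2 ratio of -0.45 ± 0.35. Ubb, which encodes ubiquitin in tandem copies, stood at -0.06 and 0.43 on array 1 and array 2 and did not pass.

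Of 8 tested shuttle and p97 cofactor genes, which bring ubiquitinated proteins to the particle, 1 rose and 0 fell, with a median of -0.05. The 1 that rose was Zfand5, whose protein binds ubiquitin and the proteasome, at 0.91 ± 0.09. Of 9 transcription factor genes 1 rose, Mafk at 0.53 ± 0.07, a small Maf partner. Nfe2l1, the factor that raises proteasome genes when the particle is inhibited, had ratios of -0.17 and 0.27 and did not pass. Of 7 peptidases that trim proteasome products 1 fell, the leucine aminopeptidase Lap3 at -1.02 ± 0.26. The cytosolic chaperonin, another ring-shaped complex, had 6 of 8 genes lower and a median of -0.66. In the COP9 signalosome, a complex built like the lid, 2 of 7 genes fell, with a median of -0.28. Of 46 tested cytosolic ribosomal protein genes 17 fell and 1 rose, with a median of -0.26. Over all genes tested, 9.26% were lower and 7.82% higher. The single calls among shuttles (12.5% higher), transcription factors (11.1% higher) and peptidases (14.3% lower) lay near these shares. Lower calls made up 75% of the chaperonin, 28.6% of the COP9 signalosome and 37.0% of the ribosomal protein genes. The differences between lists were not tested.

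**Figure D4:**
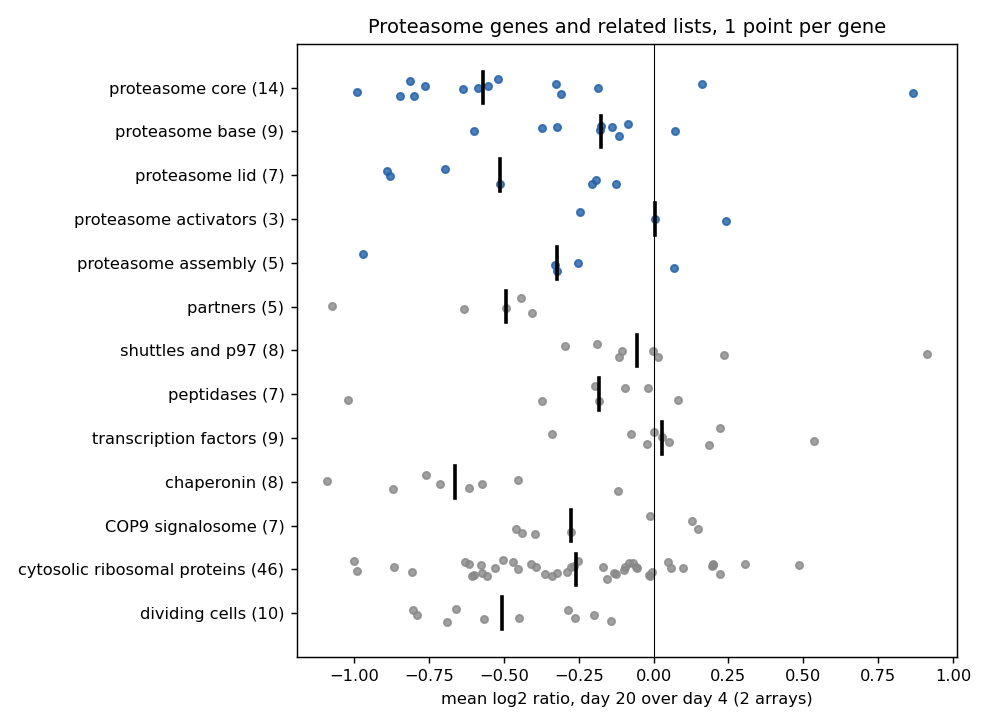
Mean log2 ratio of day 20 over day 4 (x axis, 2 arrays), 1 point per tested gene, for the proteasome groups (blue) and related lists (grey), with the number of genes in parentheses and the median as a bar. Medians are lowest for the chaperonin at -0.66 and the proteasome core at -0.57, and Psmb7 at 0.87 and Zfand5 at 0.91 stand far to the right of their lists.

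The calls did not all withstand other processing. With the scanner software's log ratios 4 of the 39 genes fell, Psmb4, Psmd3, Psmd14 and Psmg1, where 3.48% of all genes did. With median centring in place of loess 8 fell, where 4.34% did, and with a normexp offset of 0 it was 10, where 7.24% did. Psmb4, Psmd3 and Psmd14 fell and Psmb7 rose in all 9 tested alternatives. Psmb7 then lay between 0.70 and 0.92. With the scanner's ratios the calls of Psma2, Psma3, Psma5, Psma7, Psmb2, Psmb3, Psmb5, Psmb10, Psmc2, Psmd7 and Psmd12 were lost. The median of the 39 genes lay between -0.38 and -0.32 in these alternatives, while single genes moved further. With median centring Psmb1 stood at -0.59 and Psma1 at -0.38, and neither passed.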

How the data were processed

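Spot values came from the authors' scanner software, Agilent Feature Extraction (7.5 per the submitters' processing notes, 7.5.1 per the file header for array 2). Mean signals and median local backgrounds were deposited as raw intensity values. Processed signals are intensity values that the authors' software had corrected for background and dye. The deposited log10 ratios give Cy5 over Cy3. They match the series matrix in 22393 of 22393 rows on each array (tolerance 1e-06), with medians of 0.00076 and 0 and the dye swap not turned. In array 1 a spreadsheet had turned background medians into month names, an otherwise unusable entry, and 313 Cy3 and 324 Cy5 cells were read back as values ending in 0.5. Their largest gap from the background mean of the same spot was 1.57 in Cy3 and 403 in Cy5. Among the other cells it was 27.2 in Cy3 and 187 in Cy5, so the check was less clean for Cy5.

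For this report, new log2 ratios were made in R (4.3.3) using limma (3.58.1) and data.table (version 1.17.8): normexp with an offset of 50, loess per array with weight 0 for control and marked spots, marked spots left out, ratios turned to day 20 over day 4, and the brightest of a gene's probes kept. Of 20868 gene probes 8947 were named by RefSeq accession, 267 by a symbol and 290 by an older symbol in the description. Another 11247 were resolved to no symbol and kept an accession as their gene name. Genes well above background in both channels of a day were tested (18073) against 0 by lmFit and eBayes (two-sided; Benjamini-Hochberg adjusted p below 0.05). The residual degree of freedom is 1 per gene, and the prior had 11.9 degrees of freedom and an SD of 0.163. The fit was tested on simulated data. Precision is limited by the 2 arrays. Every member is named. Part of the result of the list on ubiquitin and its activating enzyme is not reported here. Members, lists and motifs were chosen with earlier results of these data known. The alternatives were other background, normalization, filter, prior and probe settings and each array alone.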

Additional observations from a re-analysis of the deposited data

How the results depend on the processing

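Over all genes, 1413 were higher and 1674 lower. These counts became 612 and 629 when the scanner's own ratios were used, and with median centring 560 and 785. For the proteasome genes the 15 lower calls became 4 and 8 in the same settings, and the cause was not tested. Over the other 7 tested alternatives between 10 and 16 proteasome genes were lower, and Psmb7 was higher in all 9. Psme1 had a log2 ratio of -0.14 with median centring, against 0.01. Each array alone gave a median from -0.45 to -0.22 and 34 or 27 genes below 0, with no test. The ratio within an array already pairs the days, so no further block was fitted. Dim probes limit what can be read: the smallest signals, those of Psmd11, were 69.6 to 106 intensity units, little above the offset of 50.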
